A study of Homo sapiens with 18 samples.

Results

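Genes of the ATF4 stress response and of serine synthesis were followed in 786-O cells, a human clear cell renal cell carcinoma (ccRCC) line, across 2 VHL backgrounds and 3 shRNAs. The genes were chosen by name: the transcription factor ATF4, its stress targets DDIT3, TRIB3, CHAC1 and SESN2, the amino acid enzyme ASNS, and the serine and one-carbon enzymes PHGDH, PSAT1, SHMT2 and MTHFD2. Of these 10 genes, 9 were among the 13141 genes in the table, and PSAT1 was not analysed here because no row carried its name. Their mRNA was read on 18 HumanHT-12 V4 arrays from Illumina. VHL-/- cells, which lack working VHL, and VHL+/+ cells, in which it was put back, each stably expressed 1 of 3 shRNAs: a scrambled control (SCR), PBRM1 shRNA-94 or KDM5C shRNA-60. Each of the 6 groups had 3 arrays, no cells received a further treatment, and all were grown in DMEM with glutamine and fetal bovine serum. Each knockdown rested on 1 shRNA, and the sources used here do not say whether the replicates were separate cultures, so p-values measure only the spread between these arrays, which may be technical.

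ATF4 is the main effector of the integrated stress response. When a kinase phosphorylates the initiation factor eIF2, most translation slows while ATF4 mRNA is translated better, and ATF4 protein then switches on genes for amino acid synthesis and uptake and for stress signalling. Much of ATF4 control therefore lies in translation, which an mRNA array does not read. Serine is made from a glycolytic intermediate by PHGDH, PSAT1 and PSPH. SHMT2 and MTHFD2 then use it in mitochondria to supply one-carbon units. VHL marks the HIF proteins for destruction, PBRM1 is a subunit of the PBAF chromatin remodelling complex, and KDM5C is a histone H3 lysine 4 demethylase. In arrays of whole cultures, fewer cells expressing a gene and less RNA per cell cannot be told apart.

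ATF4 binds C/EBP-ATF response elements, so the promoters were searched on both strands for the letters TGATGNAA, and for CCACG, the part of the endoplasmic reticulum stress element that ATF6 recognises. The windows ran from 250 bases before to 50 bases after each RefSeq gene start on GRCh38.p14. TGATGNAA was found in 3.6% of 35116 windows and CCACG in 38.1%. SHMT2 had no window in the table. The 9 other genes, PSAT1 included, had 14 windows, and TGATGNAA was found in those of ASNS, 68 bases before the start, and CHAC1, 209 bases before it. CCACG was found in windows of ATF4, TRIB3, CHAC1 and MTHFD2. In these windows no match of one motif overlapped a match of the other. The following RefSeq sequences, written 5′ to 3′ on the strand of the gene with either motif in capitals, show the 250 bases before the start of TRIB3, which differed between the VHL backgrounds, the same stretch of ASNS and MTHFD2, which varied together across arrays, and the CHAC1 site.
TRIB3, chr20:381045-381294, plus strand: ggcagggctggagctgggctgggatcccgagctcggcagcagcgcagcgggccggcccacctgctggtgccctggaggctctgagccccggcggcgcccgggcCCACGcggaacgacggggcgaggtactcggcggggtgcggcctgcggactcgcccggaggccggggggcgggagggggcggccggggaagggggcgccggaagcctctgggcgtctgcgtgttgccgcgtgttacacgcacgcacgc
ASNS, chr7:97872409-97872658, minus strand: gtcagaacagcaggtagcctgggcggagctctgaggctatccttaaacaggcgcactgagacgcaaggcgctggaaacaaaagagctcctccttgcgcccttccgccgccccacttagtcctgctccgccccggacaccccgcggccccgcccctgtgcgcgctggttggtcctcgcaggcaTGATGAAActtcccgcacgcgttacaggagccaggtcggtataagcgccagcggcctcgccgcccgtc
MTHFD2, chr2:74198365-74198614, plus strand: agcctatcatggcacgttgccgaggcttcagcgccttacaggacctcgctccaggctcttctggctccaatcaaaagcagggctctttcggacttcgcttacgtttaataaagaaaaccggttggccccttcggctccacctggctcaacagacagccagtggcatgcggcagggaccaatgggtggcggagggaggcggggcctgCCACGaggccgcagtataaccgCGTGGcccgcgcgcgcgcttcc
CHAC1, chr15:40953252-40953279, plus strand: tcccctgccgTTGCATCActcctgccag
A match is a description of the letters in the window only.

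The arrays of a group correlated at 0.976 to 0.995 across genes, no 2 arrays held identical values, and the deposited log2 signals ran from 6.27 to 14.66 with a median of 7.65. The labels give each array a value of 1 or 2 under the tag ChIP, which was read here as its BeadChip, although they do not say so. By this reading replicates 1 and 2 of every group were on chip 1 and replicate 3 on chip 2, and limma found 3130 genes (23.8%) that differed by chip (adjusted p under 0.05). Of 9 genes taken as kidney epithelial markers, 8 were listed. PAX8, KRT8 and KRT19 had means of 8.50, 9.84 and 10.34, and KRT18 had 7.31, below the median signal. CUBN, the 1 proximal tubule marker of 4 that was listed, had a mean of 6.70, near the lowest signals. Of the markers of other cell types, 2 of 5 leukocyte, 1 of 4 endothelial and 3 of 5 fibroblast genes were listed. PTPRC, CD3E, VWF, CDH5 and DCN had no row, COL1A1 and PECAM1 had means of 6.81 and 6.75, and CD68 had a mean of 8.57. CD68 was the 1 gene of these 7, CUBN included, that passed in an averaged comparison, at -0.23 in VHL+/+ against VHL-/- cells, and its part in the VHL results was not tested. KDM5C had no row, so the KDM5C shRNA labels could not be checked on their target. PBRM1 signal was 7.02 to 7.52 over the arrays and was not shown to differ between PBRM1 shRNA and SCR arrays in VHL-/- cells (log2 fold change -0.06, 95% interval -0.32 to 0.19) or VHL+/+ cells (-0.15, -0.40 to 0.11). VHL signal was 7.64 to 8.16, with a difference of 0.08 (-0.03 to 0.18) between the backgrounds. It was 0.20 higher (0.07 to 0.33) with KDM5C shRNA than with SCR, averaged over the backgrounds (adjusted p = 0.0449 in limma). In that comparison 11.0% of all genes passed. Groups are therefore named as the labels name them, and directions rest on the labels.

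One array stood apart in a gene of the serine pathway and is described before the comparisons. The array labelled VHL-/- KDM5C shRNA replicate 2 had 11 genes more than 1 log2 unit above every other array, and none of the other 17 arrays had any. PHGDH, the first enzyme of serine synthesis, led them. Its log2 signal there was 9.62, against 6.70 to 7.47 on the others. CKB, the brain form of creatine kinase, reached 9.42 against at most 7.27, H1F0, a linker histone, 9.06 against at most 7.23, and TUBB2B, a tubulin, 9.10 against at most 7.60. The other 7 were BEXL1, HAND1, NME4, HES5, JAM3, LIN28B and HSPA1A. The second highest value of PHGDH, CKB, H1F0 and HAND1 was on VHL+/+ KDM5C shRNA replicate 2, at 7.47, 7.27, 7.23 and 7.15. What set these arrays apart was not tested.

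**Figure D1:**
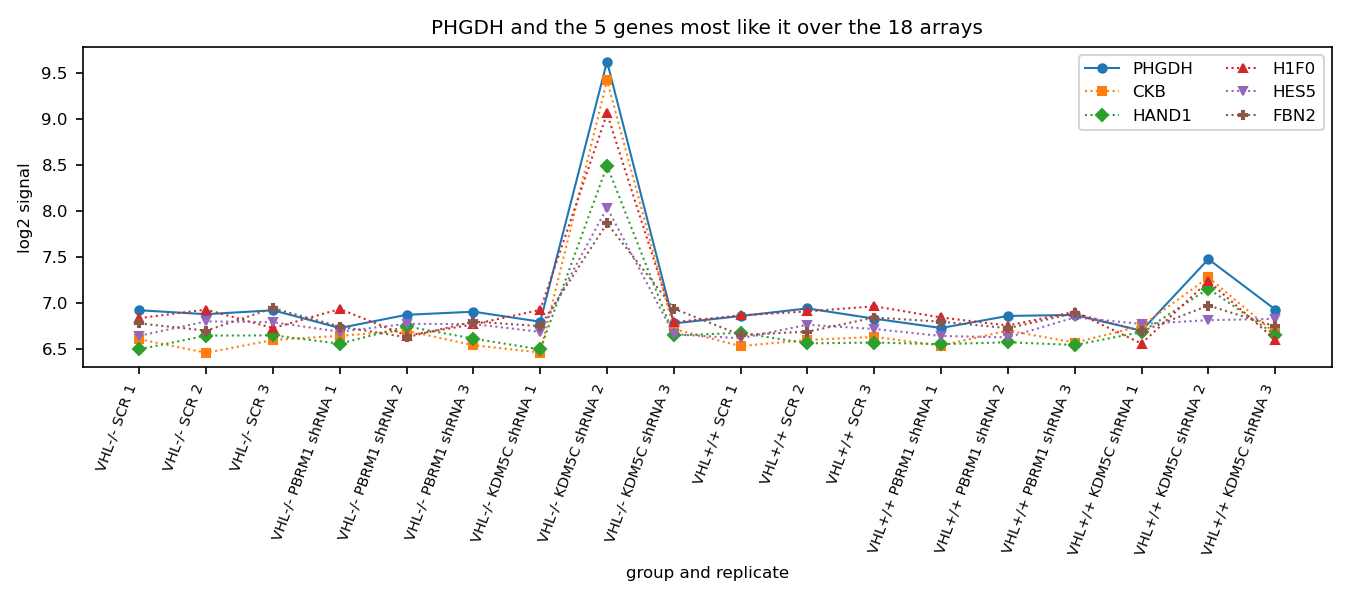
Log2 signal (vertical axis) of PHGDH and the 5 genes whose chip-adjusted values correlated most with it, on each of the 18 arrays named by group and replicate (horizontal axis). All 6 peak on VHL-/- KDM5C shRNA replicate 2, where PHGDH reads 9.62, and 5 of them have their second highest value on VHL+/+ KDM5C shRNA replicate 2; signals of different genes are not comparable in height.

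PHGDH was otherwise flat, but at a low signal. Its median over the arrays other than VHL-/- KDM5C shRNA replicate 2 was 6.87. That is near the means of CUBN, PECAM1 and COL1A1 (6.70, 6.75 and 6.81), so flat values there do not show that PHGDH was unchanged. Its values on VHL-/- arrays were 6.92, 6.87 and 6.92 with SCR, 6.72, 6.87 and 6.90 with PBRM1 shRNA, and 6.79, 9.62 and 6.77 with KDM5C shRNA. On VHL+/+ arrays they were 6.85, 6.94 and 6.83, then 6.72, 6.86 and 6.87, then 6.70, 7.47 and 6.93. Only the 2 KDM5C shRNA arrays numbered replicate 2 left the narrow range of the others. The log2 fold change of PHGDH between KDM5C shRNA and SCR in VHL-/- cells was 0.83 (95% interval -0.19 to 1.84, adjusted p = 0.414 in limma), and -0.12 without that array (adjusted p = 0.794). The 5 genes most like PHGDH over the 18 arrays, by Pearson correlation of chip-adjusted values, were CKB (0.98), HAND1 (0.98), H1F0 (0.97), HES5 (0.97) and FBN2 (0.96). Without the 1 array these fell to 0.75, 0.81, 0.58, 0.45 and 0.55, so the likeness rested largely on it.

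The question of the first comparison was whether VHL status moved the 9 genes, averaged over the 3 shRNAs with 9 arrays in each background. TRIB3, a pseudokinase that ATF4 and DDIT3 induce and that damps AKT signalling, was lower in VHL+/+ cells, and it was the 1 gene of the 9 to pass the test of adjusted p under 0.05 in limma. Of all genes in the table, 12.2% passed and 6.17% passed with lower signal, so 1 of 9 was close to the background share. TRIB3 read 10.43, 10.05 and 11.29 on the VHL-/- SCR arrays and 9.62, 9.92 and 10.45 on the VHL+/+ SCR arrays. With PBRM1 shRNA it read 10.44, 10.37 and 11.44 against 10.32, 9.93 and 10.29. With KDM5C shRNA it read 10.44, 10.70 and 11.37 against 10.09, 10.28 and 10.91. On either chip, every VHL-/- array was above every VHL+/+ array with the same shRNA, although the deposited values overlapped between the chips. The log2 fold change was -0.52 ± 0.10 (SE, 95% interval -0.72 to -0.32), a 1.44-fold difference with adjusted p = 0.00153, below the 1.5-fold that was also asked of a call and that 0.928% of all genes met.

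The VHL difference in TRIB3 was -0.59 with SCR, -0.57 with PBRM1 shRNA and -0.41 with KDM5C shRNA, and on its own none of the 3 passed (adjusted p = 0.0668, 0.0894 and 0.246). Of all genes, 3.20%, 2.37% and 2.77% passed in these 3 comparisons, and no gene of the 9 did; TRIB3 in each, and with PBRM1 shRNA also ASNS and SESN2, were under an unadjusted 0.05, beside 15.6%, 13.5% and 14.9% of all genes. After the chip term was removed the arrays of the backgrounds did not overlap in any of the 3, as was true of 25.1%, 19.3% and 18.9% of all genes. TRIB3 was also 0.74 higher on chip 2 (adjusted p = 8.80e-05), and the VHL difference was -0.38 within chip 1 and -0.81 within chip 2. Without a chip term the fold change was the same and the adjusted p was 0.156. Without the array that stood apart it was -0.50 (adjusted p = 0.00398).

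DDIT3, which encodes the stress factor CHOP, and ASNS, which makes asparagine, were, with TRIB3, the 3 genes under an unadjusted p of 0.05 for VHL (24.4% of all genes), and neither passed. DDIT3 read 8.45, 8.28 and 8.21 on VHL-/- SCR arrays against 7.59, 7.96 and 8.79 on VHL+/+ SCR arrays, with the highest of all its values on the VHL+/+ array of chip 2. The averaged difference was -0.23 (-0.45 to -0.02, adjusted p = 0.161). It was -0.37 on chip 1, where an analysis of that chip alone gave an adjusted p of 0.00558, and 0.03 on chip 2. ASNS differed by -0.17 (-0.30 to -0.05, adjusted p = 0.0672), and most in PBRM1 shRNA cells. There it read 9.92, 9.90 and 9.81 in VHL-/- cells against 9.73, 9.51 and 9.21 in VHL+/+ cells. The arrays did not overlap, as for 19.3% of all genes after the chip term was removed, and the difference was -0.39 (adjusted p = 0.0538 in limma). With SCR the same difference was -0.01.

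ATF4 mRNA stayed within 10.93 to 11.74 on all arrays. Its VHL difference was 0.08, with an interval of -0.11 to 0.26 that leaves out a 1.5-fold change in either direction. The other 5 genes had VHL differences between -0.25 for PHGDH and 0.14 for SHMT2, and none passed. The PHGDH value changed sign without the array that stood apart, to 0.07 (adjusted p = 0.702 in limma), and ranged from -0.43 to 0.07 as single arrays were left out. CHAC1, a glutathione-degrading enzyme, read 6.53 to 6.99 and belonged to the dimmest genes of the table, with a VHL difference of 0.06 (-0.06 to 0.17). SESN2, a leucine-sensing inhibitor of mTORC1, read 6.63 to 7.49.

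**Figure D2:**
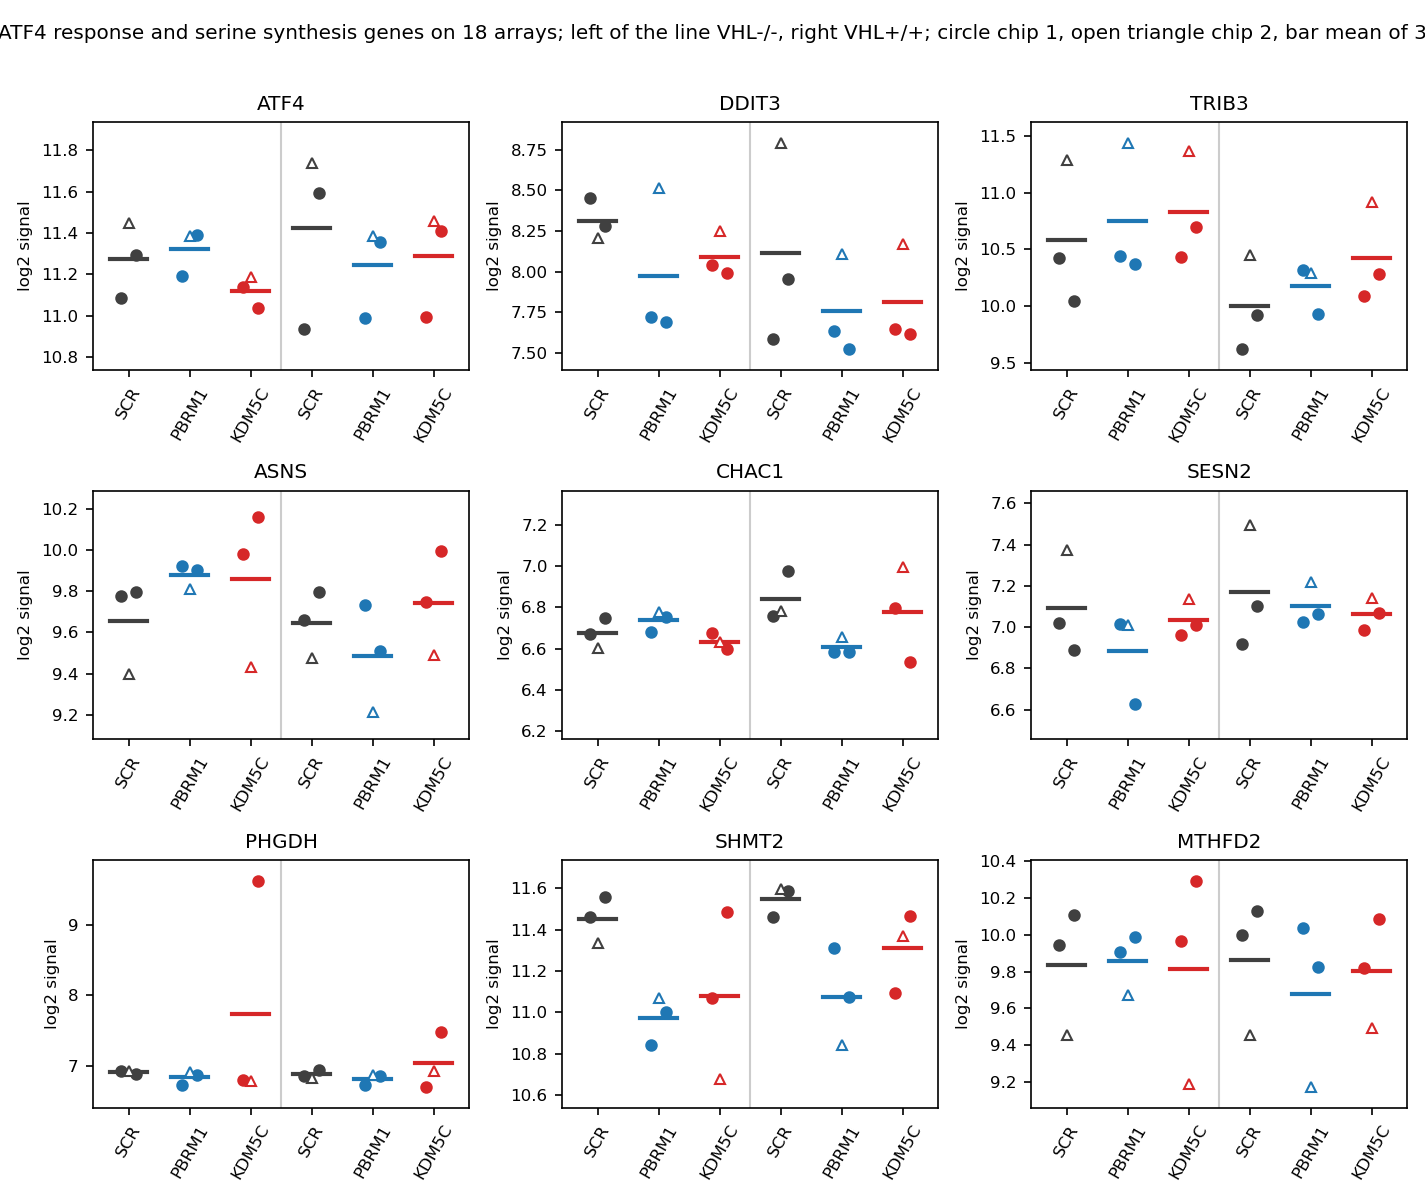
Log2 signal (vertical axes, each panel with its own range) of the 9 genes in the 6 groups of 3 arrays, VHL-/- left and VHL+/+ right of the line; filled circles are chip 1, open triangles chip 2, bars the mean of 3. TRIB3 is lower right of the line on both chips, SHMT2 is lower with PBRM1 shRNA than with SCR in both backgrounds, and PHGDH rests on 1 array at 9.62.

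The second comparison asked what PBRM1 shRNA did, averaged over the backgrounds with 6 arrays a side. SHMT2, the mitochondrial enzyme that splits serine into glycine and a one-carbon unit, was lower in the arrays labelled PBRM1 shRNA, and again it was the 1 gene of the 9 to pass, where 11.7% of all genes passed, 5.66% lower and 6.07% higher. With the 1.5-fold threshold 1.34% of all genes and none of the 9 were called. SHMT2 read 11.46, 11.56 and 11.34 on VHL-/- SCR arrays and 10.84, 11.00 and 11.07 with PBRM1 shRNA. In VHL+/+ cells it read 11.46, 11.59 and 11.60 with SCR and 11.31, 11.08 and 10.84 with PBRM1 shRNA. The lowest of the 6 SCR values lay above the highest of the 6 PBRM1 shRNA values, 11.34 against 11.31. After the chip term was removed the groups did not overlap either, which held for 4.98% of all genes. The log2 fold change was -0.48 ± 0.11 (SE, 95% interval -0.71 to -0.25), 1.39-fold, with adjusted p = 0.00813 in limma. It was -0.46 on chip 1, -0.51 on chip 2, and -0.48 without the array that stood apart (adjusted p = 0.00236).

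In either background alone the PBRM1 shRNA difference of SHMT2 was of the same size, -0.48 in VHL-/- cells (adjusted p = 0.0833) and -0.47 in VHL+/+ cells (adjusted p = 0.123). No gene of the 9 passed in these single comparisons, in which 5.43% and 2.49% of all genes did, and 2 of the 9 were under an unadjusted 0.05 in each (ASNS and SHMT2, then CHAC1 and SHMT2), beside 18.1% and 15.3% of all genes. On average over the backgrounds DDIT3 and SHMT2 were under an unadjusted 0.05, as were 23.7% of all genes, and DDIT3 differed by -0.35 (-0.61 to -0.09, adjusted p = 0.0828). As single arrays were left out this value ranged from -0.48 without VHL-/- SCR replicate 3 (adjusted p = 0.00712) to -0.24 without VHL+/+ SCR replicate 3 (adjusted p = 0.238), and it passed in 3 of these 18 fits. The next enzyme of the pathway, MTHFD2, which oxidises the one-carbon unit that SHMT2 makes, differed by -0.08 (-0.27 to 0.11), PHGDH by -0.06 and ATF4 by -0.07 (-0.29 to 0.16).

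For KDM5C shRNA against SCR, averaged in the same way and with the same 6 SCR arrays, no gene of the 9 passed in limma, while 11.0% of all genes did, 5.46% higher and 5.55% lower, with 1.19% called at 1.5-fold. TRIB3 and SHMT2 were under an unadjusted p of 0.05, which 23.5% of all genes were. SHMT2 read 11.07, 11.49 and 10.68 in VHL-/- cells and 11.10, 11.47 and 11.37 in VHL+/+ cells, both overlapping the SCR arrays. Its difference was -0.31 (-0.53 to -0.08, adjusted p = 0.0838). The highest VHL-/- value, 11.49, was on the array that stood apart. Without it the difference was -0.40 (adjusted p = 0.0130), and -0.56 in VHL-/- cells alone (adjusted p = 0.0360). Whether SHMT2 passed therefore depended on this array. TRIB3 differed by 0.34 (0.09 to 0.59, adjusted p = 0.0773), and ATF4 by -0.15 (-0.37 to 0.08). In the VHL-/- and VHL+/+ backgrounds alone 4.78% and 4.19% of all genes passed and none of the 9. SHMT2 in the first and TRIB3 in the second were under an unadjusted 0.05, beside 17.5% and 18.4% of all genes.

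No difference between the backgrounds in the response to either shRNA, nor between the 2 shRNAs within a background, passed in limma for any gene of the table (0.00% in all 4 tests, with 4.21%, 7.72%, 5.38% and 4.15% of genes under an unadjusted 0.05). Among the 9 genes, ASNS and CHAC1 were under an unadjusted 0.05 for the PBRM1 shRNA response between backgrounds, none for the KDM5C shRNA response, none between the shRNAs in VHL-/- cells, and ASNS between them in VHL+/+ cells. ASNS was 0.22 above SCR with PBRM1 shRNA in VHL-/- cells and 0.16 below it in VHL+/+ cells, a difference of -0.38 with an interval of -0.69 to -0.08 and an adjusted p of 1.00. For SHMT2 the same difference was 0.01, with an interval of -0.45 to 0.46, too wide to show that the backgrounds act alike.

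**Figure D3:**
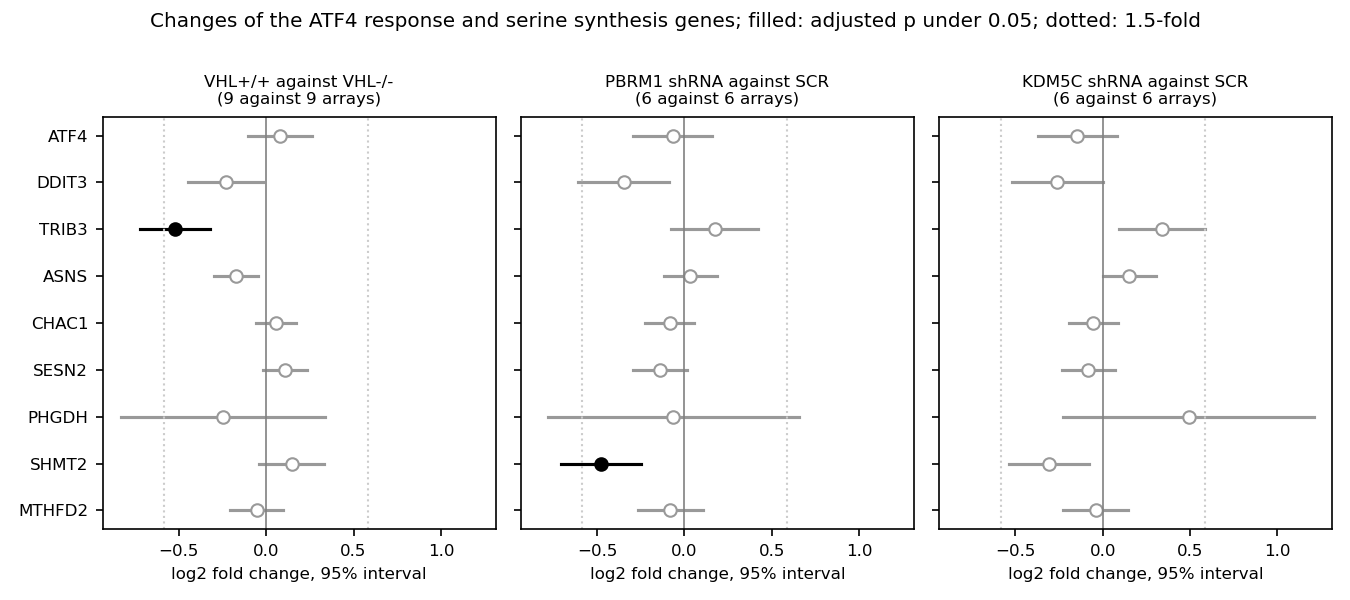
Log2 fold change (horizontal axes) with 95% interval for the 9 genes (vertical axis) in VHL+/+ against VHL-/- cells and in PBRM1 or KDM5C shRNA against SCR cells, each averaged over the other factor. Filled points, TRIB3 at -0.52 in the first panel and SHMT2 at -0.48 in the second, had adjusted p under 0.05; dotted lines mark 1.5-fold, and the wide PHGDH intervals come with the 1 array at 9.62.

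The chips divided the 9 genes as well. DDIT3, TRIB3 and SESN2 were 0.50, 0.74 and 0.25 higher on chip 2, while ASNS and MTHFD2 were 0.36 and 0.60 lower on chip 2 (adjusted p = 0.00308, 8.80e-05, 0.00709, 6.01e-04 and 4.88e-05). These 5 of 9 genes passed where 23.8% of all genes did. Since replicate 3 of every group was on chip 2, chip and anything else particular to replicate 3 cannot be told apart.

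ASNS, SHMT2 and MTHFD2 varied together from array to array after group and chip were removed. Over the 18 arrays, whose deviations sum to 0 within a group, SHMT2 and MTHFD2 correlated at r = 0.94 (Spearman's rho 0.93), ASNS and MTHFD2 at 0.89 (0.85), and ASNS and SHMT2 at 0.89 (0.86). Without the array that stood apart r was 0.90, 0.85 and 0.84, and without the 2 arrays farthest from the median 0.90, 0.82 and 0.84. The 3 genes lay on the same side of their group means on 13 of the 18 arrays, 5 times above and 8 times below. Between replicates 1 and 2 of VHL+/+ PBRM1 shRNA cells, for example, ASNS dropped by 0.23, SHMT2 by 0.23 and MTHFD2 by 0.21, and between those of VHL+/+ KDM5C shRNA cells they differed by 0.25, 0.37 and 0.27 the other way. Correlations across the 18 arrays that kept the group differences and removed the chip term alone were 0.65 for SHMT2 and MTHFD2, 0.71 for ASNS and MTHFD2, and 0.10 for ASNS and SHMT2. PHGDH correlated with SHMT2, MTHFD2 and ASNS within groups at 0.69, 0.67 and 0.60, and at 0.38, 0.38 and 0.45 without the array that stood apart. By the same measure DDIT3 correlated with ASNS at 0.50, and TRIB3 at 0.49 with MTHFD2 and 0.47 with ASNS. ATF4 mRNA correlated with ASNS, SHMT2 and MTHFD2 at 0.21, 0.28 and 0.19. Genes of neither pathway list came near these values by the same measure, FANCE with ASNS at 0.92 and FAM188A with MTHFD2 at 0.88. Those were looked up for their likeness, so the values of ASNS, SHMT2 and MTHFD2 do not show a trait particular to them. The points share the quantile normalization of the arrays, and no test was made of these values.

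**Figure D4:**
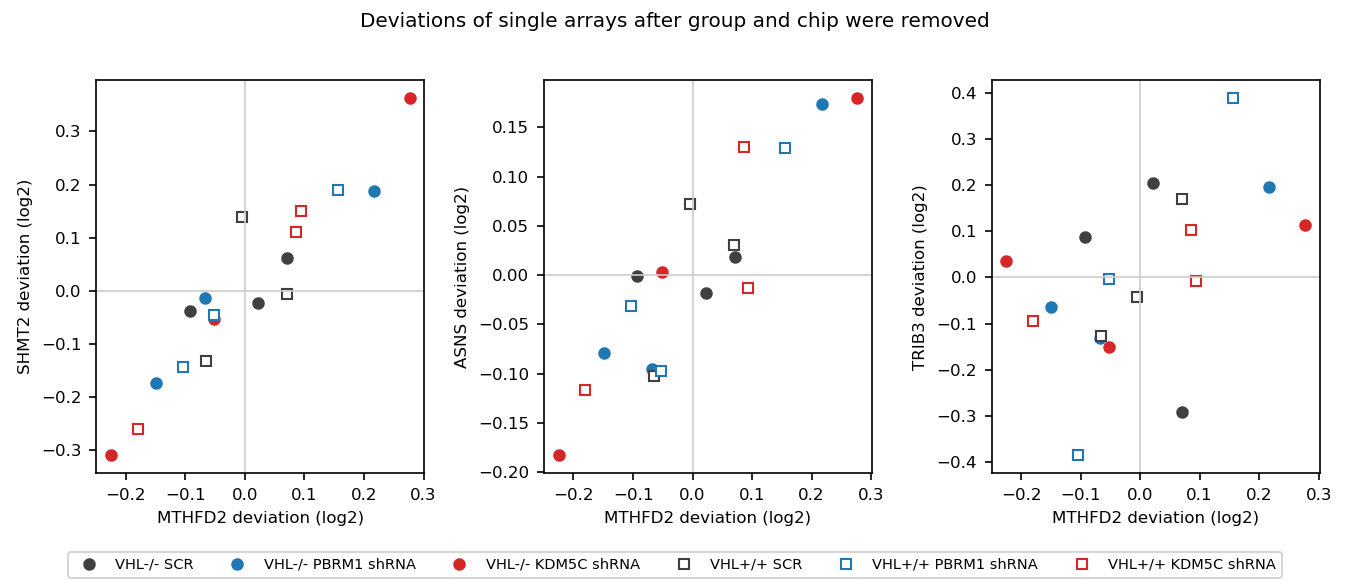
Deviation of each of the 18 arrays from its group and chip in log2 units, MTHFD2 on the horizontal axes against SHMT2, ASNS and TRIB3 on the vertical axes; circles are VHL-/- and open squares VHL+/+ arrays, with colours for the shRNA. The first 2 panels lie along a diagonal (r = 0.94 and 0.89) and the third is scattered (r = 0.49).

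By the same measure as for PHGDH, the genes most like TRIB3 were GAL3ST1 (0.89), a sulfotransferase, MCM2 (0.89), a replication helicase subunit, C14ORF80, HAUS8 and EBP (0.89, 0.88 and 0.88). Those most like SHMT2 were MAN2A1 (0.93), a Golgi mannosidase, ODC1 (0.91), the first enzyme of polyamine synthesis, GLRB, CYFIP1 and SBF1 (0.90 each). Leaving out the array that stood apart put these 10 correlations at 0.87 to 0.94. On the deposited values, with the chip difference kept, TRIB3 correlated at 0.95 with GAL3ST1 and 0.81 with EBP. With MCM2, C14ORF80 and HAUS8 it was then 0.17, 0.28 and -0.11, so those likenesses held only after the chip term was removed. For the genes named with SHMT2 the deposited values gave 0.79 to 0.90.

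The rest of the pathway was followed in 7 lists of related genes, and the medians and counts below are descriptions. Among 23 other ATF4 targets, 6 fell and 2 rose in VHL+/+ cells, with a list median of -0.09 against 0.00 for all genes, of which 6.17% passed lower and 6.03% higher. DDIT4, a HIF and ATF4 target that restrains mTORC1, read 10.94, 10.88 and 11.83 on VHL-/- SCR arrays and 9.94, 9.54 and 11.26 on VHL+/+ SCR arrays. It was lower in VHL+/+ cells on either chip, with an average difference of -1.02 ± 0.09 (SE, adjusted p = 1.41e-06 in limma), and passed with each of the shRNAs. PPP1R15A, the GADD34 subunit of the phosphatase that removes phosphate from eIF2, read 9.92, 10.26 and 9.79 against 9.17, 9.37 and 9.37. Its difference was -0.65 ± 0.07 (adjusted p = 1.50e-05), and it too passed with each shRNA.

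In the other lists the VHL counts stand beside the same 6.17% lower and 6.03% higher of all genes. Among 13 amino acid transporters, 4 fell with VHL and none rose, with a median of -0.12. SLC7A5 and SLC3A2, which together form the large neutral amino acid transporter LAT1, fell by 0.65 and 0.55 (adjusted p = 6.97e-05 and 3.11e-05). SLC7A5 read 12.78, 12.63 and 12.55 on VHL-/- SCR arrays and 12.20, 12.40 and 11.70 on VHL+/+ SCR arrays. These did not overlap, and after the chip term was removed 25.1% of all genes did not overlap in this comparison. SLC1A5, a glutamine transporter, fell by 0.33 (adjusted p = 0.0101, and 0.156 without a chip term). Its difference was -0.06 with SCR, -0.60 with PBRM1 shRNA and -0.33 with KDM5C shRNA, and of these the second passed (adjusted p = 0.904, 0.0232 and 0.243). Among 12 amino acid enzymes 1 fell and 1 rose, and the first was CBS, which turns homocysteine and serine into cystathionine, at -0.58 (adjusted p = 4.66e-07). Among 13 genes upstream of mTORC1, 5 fell and 1 rose, DDIT4 again and the Rag GTPase RRAGD (-0.63, adjusted p = 9.81e-06) among them. The 21 serine and one-carbon enzymes gave 2 rises and no fall, near the share of all genes, with GCSH of the glycine cleavage system at 0.34 and SHMT1, the cytosolic partner of SHMT2, at 0.16, a rise lost without a chip term and in 10 of 18 fits that left out 1 array. Without the array that stood apart the counts passing were 7 of 23, 3 of 13, 2 of 12, 4 of 13 and 1 of 21 in these lists.

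With PBRM1 shRNA, 3 of the 23 other ATF4 targets fell and 1 rose, with a list median of -0.13 against 0.00 for all genes, of which 5.66% passed lower and 6.07% higher. GDF15, a secreted stress cytokine, read 9.29, 9.17 and 9.60 on VHL-/- SCR arrays and 7.86, 7.64 and 8.48 with PBRM1 shRNA. These groups did not overlap, and after the chip term was removed 24.1% of all genes did not overlap in this comparison. In VHL+/+ cells GDF15 read 8.78, 8.79 and 10.27 with SCR and 8.49, 7.98 and 9.91 with PBRM1 shRNA, and these deposited values overlapped. The group means there were 9.28 and 8.79, so the averaged fall came more from VHL-/- cells. The difference was -1.36 ± 0.24 in VHL-/- cells (SE, adjusted p = 0.00262) and -0.92 on average (adjusted p = 0.00183). Without a chip term neither passed (adjusted p = 0.261 and 0.195). STC2, a secreted glycoprotein, fell by 0.64 (adjusted p = 0.00217, and 0.0586 without a chip term). Of the 21 serine and one-carbon enzymes 2 fell and 1 rose, beside the same shares of all genes. PSPH, the last step of serine synthesis, read 8.66, 9.14 and 8.78 on VHL-/- SCR arrays and 7.85, 7.79 and 8.55 with PBRM1 shRNA. Its difference was -0.80 there (adjusted p = 0.0186) and -0.60 on average (adjusted p = 0.00713), beside the lower SHMT2 described above. SHMT1 rose by 0.26 (adjusted p = 0.00536, and 0.623 without a chip term). Without the array that stood apart, 4 of the 23 and 2 of the 21 passed.

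Several listed genes passed with either shRNA, both compared with the same SCR arrays. AARS, the alanyl-tRNA synthetase and an ATF4 target, read 11.13, 11.16 and 11.06 on VHL-/- SCR arrays and 11.81, 11.76 and 11.93 with PBRM1 shRNA. It rose by 0.75 with PBRM1 shRNA and by 0.68 with KDM5C shRNA (adjusted p = 5.29e-06 and 1.59e-05). The eIF2 subunits EIF2S1 and EIF2S2 rose by 0.64 and 0.62 with PBRM1 shRNA and by 0.68 and 0.62 with KDM5C shRNA. EIF2AK2, the interferon-induced eIF2 kinase PKR, fell by 0.62 with either. These were among 5 of 20 genes around eIF2 that passed with PBRM1 shRNA, 3 higher and 2 lower, and 4 with KDM5C shRNA, 2 each way, where 11.7% and 11.0% of all genes passed. SLC38A2, a neutral amino acid transporter, fell by 0.42 with PBRM1 shRNA and by 0.35 with KDM5C shRNA. With KDM5C shRNA the other ATF4 targets gave 3 falls and 1 rise (STC2 at -0.66), and the serine and one-carbon enzymes 1 fall and 2 rises, of which 1 gene of 21 passed without the array that stood apart. Of all genes 5.55% passed lower and 5.46% higher in this comparison.

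**Figure D5:**
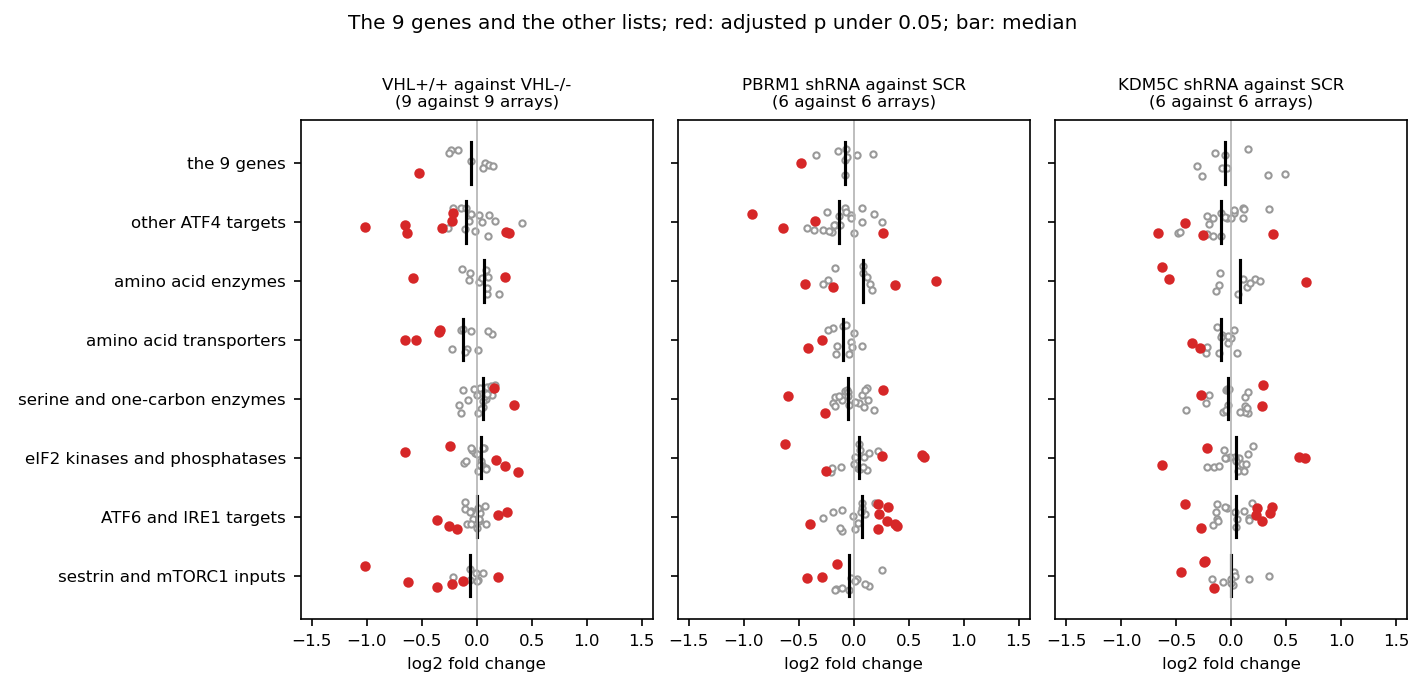
Log2 fold change (horizontal axes) of every listed gene, by list (vertical axis), for VHL, PBRM1 shRNA and KDM5C shRNA, each averaged over the other factor; red points had adjusted p under 0.05 and black bars are list medians, and the vertical spread within a list has no meaning. In the first panel DDIT4, in 2 lists, lies at -1.02, and in the second GDF15 lies at -0.92 and AARS at 0.75.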

How the data were processed

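Total RNA of 18 samples of 786-O cells was hybridised to Illumina HumanHT-12 V4 BeadChips. The deposited values are log2 intensities, 1 row per gene symbol. Per the methods, the authors corrected the background, took log2, quantile-normalized the arrays, filtered probes by detection (threshold 0.05) and took the mean of a gene's probes. Whether batch correction went into these values is not given in the sources used here. The submitters' processing notes name GenomeStudio and limma. Arrays have no read depth, so precision is limited by how many there were.

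Groups came from the labels, and the chip from their tag ChIP (1 or 2), read as the BeadChip, which the labels do not state. All 13141 genes were fitted in limma 3.58.1 (R 4.3.3) with coefficients for the 6 groups and the chip (11 residual degrees of freedom, empirical Bayes), and p-values were adjusted by Benjamini-Hochberg within each of 14 contrasts. A gene passed at adjusted p under 0.05 and was called if it also changed at least 1.5-fold. Arrays were set against each other for overlap after the chip term was removed. The fitting script was tested on simulated data. Alternative fits used a replicate block or no term for chip, other scalings, filters and thresholds, chip 1 alone, and each array left out; the same fits of the other lists and their named genes were added after the data were seen. The members and lists were chosen with earlier results of these data known. Up to 4 genes of each list were named, those with the largest passing change, and for the 3 members with the largest spread of group means the 5 genes of highest Pearson correlation. 1 gene named by this rule is not reported here. Further genes of the array that stood apart were chosen after their values were seen. Promoter windows came from RefSeq on GRCh38.p14. Figures were drawn with matplotlib 3.10.9.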

Additional observations from a re-analysis of the deposited data

How the results depend on the processing

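In 26 alternative fits, 3262 comparisons of the 9 genes gave no reversal of a difference that passed, and 103 changes of sign where neither fit passed. The SHMT2 difference with PBRM1 shRNA passed in all 26, and the TRIB3 difference with VHL in all but the fit without a chip term, which left 0 genes passing for VHL averaged. Chip 1 alone gave 2 genes passing for VHL averaged (DDIT3 added), 2 for PBRM1 shRNA averaged (DDIT3 added), 1 for VHL with SCR and 1 for PBRM1 shRNA in VHL-/- cells (DDIT3 in both, also called at 1.5-fold, 1 each). Fitting only the arrays of a contrast gave 1 for KDM5C shRNA averaged and 1 in VHL+/+ cells (TRIB3), 1 for PBRM1 shRNA in VHL-/- cells (SHMT2) and 1 for VHL with SCR (TRIB3, also 1 at 1.5-fold). Leaving out the dimmest genes gave 1 (ASNS) for VHL with PBRM1 shRNA. With no fold threshold, 1 gene each was called for VHL averaged and PBRM1 shRNA averaged. When single arrays were left out, the number passing ranged from 1 to 2 for VHL averaged, 0 to 1 with SCR and 0 to 2 with PBRM1 shRNA, 1 to 2 for PBRM1 shRNA averaged, 0 to 1 in VHL-/- cells, and 0 to 1 for KDM5C shRNA averaged and in VHL-/- cells; the number called at 1.5-fold ranged from 0 to 1 for VHL averaged, with SCR and with PBRM1 shRNA, and for PBRM1 shRNA in VHL-/- cells. The cause of these changes was not tested. With the replicate block in place of the chip term, TRIB3 still passed for VHL averaged and SHMT2 for PBRM1 shRNA averaged (adjusted p = 0.00258 and 0.00769 in limma). No count of the 9 genes changed. Same-numbered arrays of different groups correlated at -0.17 to 0.72 in their deviations from the group means (37 of 45 pairs over 0.1). Within chip 1 another measure was used, the difference between replicates 1 and 2 of a group. It correlated between groups at -0.36 to 0.13, so by that measure the numbers shared little within chip 1. Without a chip term 835 rather than 1603 genes passed for VHL, 818 rather than 1542 for PBRM1 shRNA and 743 rather than 1446 for KDM5C shRNA, and the lists fell to 4, 0 and 1 of the 23 other ATF4 targets and to 0, 1 and 0 of the 21 serine and one-carbon enzymes. Chip 1 alone gave 1026, 964 and 820. The scalings moved the median of all genes by under 0.01. CHAC1 is the 1 gene of the 9 among those dimmest genes (the 0.25 share with the lowest mean signal).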

Other observations

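The endoplasmic reticulum arm of stress signalling was not part of the comparisons above. Of 21 listed genes, ATF6 itself and targets of ATF6 and IRE1, 7 were higher and 1 lower with PBRM1 shRNA. With KDM5C shRNA 5 were higher and 2 lower. Of all genes, 6.07% were higher and 5.66% lower in the first comparison, and 5.46% and 5.55% in the second. Both were set against the same SCR arrays. The list medians were 0.07 and 0.05, and the count for PBRM1 shRNA was 4 without a chip term, 4 on chip 1 alone and 9 without VHL-/- KDM5C shRNA replicate 2. EDEM1, which helps clear misfolded glycoproteins, rose by 0.37 with PBRM1 shRNA (adjusted p = 0.00170 in limma), and SDF2L1, an endoplasmic reticulum chaperone partner, by 0.31 (adjusted p = 0.0232, and 0.381 without a chip term). DNAJB9, an endoplasmic reticulum co-chaperone, fell by 0.41 with KDM5C shRNA (adjusted p = 0.0107, and 0.0698 on chip 1 alone), and its difference with PBRM1 shRNA was -0.28 (adjusted p = 0.0730). ATF6 itself, the sensor of this arm, was lower, at -0.40 with PBRM1 shRNA and -0.27 with KDM5C shRNA (adjusted p = 0.00100 and 0.0154). It is the 1 lower gene counted above for PBRM1 shRNA and 1 of the 2 for KDM5C shRNA. With VHL 2 of the 21 were higher and 3 lower.

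The genes whose chip-adjusted values were most like those of DDIT3 over the 18 arrays, looked up after its values were seen, were OAS3 (0.84), ADAMTS6 (0.83), FLJ21986 (0.82), AFAP1L1 (0.82) and ISG15 (0.81). OAS3 and ISG15 are interferon-induced genes. ISG15 had group means of 11.81 ± 0.34 in VHL-/- SCR cells, 10.67 ± 0.52 with PBRM1 shRNA and 10.88 ± 0.19 with KDM5C shRNA, and 10.74 ± 0.23, 10.35 ± 0.14 and 10.68 ± 0.13 in VHL+/+ cells (SD, n = 3). VHL-/- SCR cells had the highest group mean of OAS3, ADAMTS6, FLJ21986, AFAP1L1 and ISG15, as they did of DDIT3 (8.31). These genes were picked for their likeness to DDIT3, so this ranking is no separate result.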
